A study of Mus musculus with 10 samples.

Results

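The MHC class II presentation genes are 10 genes chosen by function from the 53465 genes of the count table. They are the transactivator gene Ciita, the invariant chain gene Cd74, the classical chain genes H2-Aa, H2-Ab1 and H2-Eb1, the peptide exchange genes H2-DMa, H2-DMb1 and H2-DMb2, and the exchange inhibitor genes H2-Oa and H2-Ob. All 10 were found by symbol, each with 1 Ensembl identifier. They were measured by RNA sequencing in cultured peritoneal macrophages of Mac-GsαKO mice (5 libraries), whose name says that Gsα is knocked out in macrophages, and of CTR mice (5 libraries), both aged 6 to 8 weeks. Gsα is encoded by Gnas and lets G protein-coupled receptors switch on adenylyl cyclase, the source of cyclic AMP. The cells of both genotypes were kept in DMEM with 10% serum and 1% antibiotics and, per the labels, received no treatment. The sources used here do not give the driver of the deletion, the strain or the full genotype of the CTR mice. Whether the libraries of a genotype stem from different mice is not labelled, so every error and p-value here rests on library-to-library spread, which may be technical. The genes were chosen with the knowledge that several of them stood higher in Mac-GsαKO in the same counts. Their differences between genotypes and their covariation with Ciita are therefore given as a description: where the text says which of them passed the threshold of the fit over all genes, this is a count and no independent evidence.

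MHC class II molecules are pairs of an alpha and a beta chain that show peptides from the endosomal pathway to CD4 T cells. The invariant chain fills the peptide groove of new pairs and guides them to endosomes, where the DM proteins exchange its last fragment for other peptides and the DO proteins restrain DM. CIITA binds no DNA itself: it is recruited to factors on the X and Y boxes of class II promoters, and it is the limiting switch of the whole group. Macrophages make little class II at rest and much more after interferon gamma, and in the mouse peritoneum the small macrophage subset carries more class II than the large resident one.

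Library totals lay between 16877249 and 19235777 counts in Mac-GsαKO and between 15664243 and 18028974 counts in CTR. Values are given as CPM, read counts scaled to an equal library total after TMM adjustment. A count of 0 leaves room for up to 3 counts, which came to between 0.154 and 0.203 CPM, for counting error only. Gnas stood at 40.2 ± 2.62 CPM in Mac-GsαKO and at 435 ± 62.4 CPM in CTR (SD, n = 5 each). Of the general macrophage genes, Cd68 stood at 2828 ± 112 CPM in Mac-GsαKO and 2929 ± 197 CPM in CTR, so the labelled cell type carried its markers. On the first principal component CTR 4 and CTR 5, both at -34.7, stood away from the other CTR libraries, which lay between -18.5 and -6.85. On the second component they were not alike. There CTR 4 stood at 46.7 and CTR 5 at -9.46, with the other CTR libraries between -25.6 and -15.7. Results are also given without CTR 4 and CTR 5.

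Promoter sequences are shown because the class II genes are known to share an X box and a Y box, and because most of the genes measured here moved together between libraries. RefSeq windows on GRCm38.p6, each of 300 bases from 250 before to 50 after a start site, were matched by symbol for 7 of the 10 genes; Ciita, Cd74 and H2-Ab1 had none. The windows were searched on both strands for GNAAC, a part of an X box. It had to be followed after 24 to 30 bases by ATTGG, the core of a Y box. This gap is counted between these runs of letters and not between whole boxes. These letters were chosen after the sequences had been seen. The pair was found in 5 of the 7 genes and in 1.19% of all 32851 windows, and ATTGG alone in 37.4% of them. Each line gives 60 bases 5′ to 3′ on the strand of the gene, with these motifs in capitals.
H2-Aa (chr17:34287852-34287911, minus strand): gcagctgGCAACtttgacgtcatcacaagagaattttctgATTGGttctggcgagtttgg
H2-Eb1 (chr17:34305768-34305827, plus strand): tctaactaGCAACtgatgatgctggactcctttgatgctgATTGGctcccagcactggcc
H2-DMb1 (chr17:34153090-34153149, plus strand): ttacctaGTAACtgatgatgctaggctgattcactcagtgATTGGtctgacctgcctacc
H2-DMb2 (chr17:34145119-34145178, plus strand): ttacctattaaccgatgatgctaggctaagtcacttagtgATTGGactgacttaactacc
H2-Oa (chr17:34092296-34092355, plus strand): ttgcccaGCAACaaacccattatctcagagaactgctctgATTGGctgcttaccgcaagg
H2-Ob (chr17:34238808-34238867, plus strand): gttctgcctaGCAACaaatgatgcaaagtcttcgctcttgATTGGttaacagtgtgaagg
The gap between the motifs was 28 bases in H2-Aa, H2-DMb1 and H2-Oa, 27 in H2-Eb1 and 25 in H2-Ob. H2-DMb1 and H2-DMb2 had the same base at 51 of the 60 positions, more than any other pair of these sequences, and the H2-DMb2 stretch held ATTGG without GNAAC in front of it. Neither window of H2-DMa held the pair. A match is a run of letters and not a measured binding site.

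Class II transcripts were more abundant in Mac-GsαKO than in CTR macrophages. The 10 genes together took between 0.203% and 0.372% of all counts in the 5 Mac-GsαKO libraries and between 0.0736% and 0.171% in the 5 CTR libraries, so the lowest Mac-GsαKO library lay above the highest CTR library. Of the 10 genes, 9 passed the filter on low counts, and H2-Oa did not. In the fit across all 13203 genes tested, the fitted change of each of these 9 genes was toward higher values in Mac-GsαKO, and 6 of the 9 had an adjusted p under 0.05: Cd74, H2-Aa, H2-Ab1, H2-Eb1, H2-DMa and H2-DMb1. Over all genes tested 3.94% passed, 1.83% higher and 2.11% lower in Mac-GsαKO, and since the genes were chosen on this contrast nothing is read from the difference between these shares. The same 6 genes had every Mac-GsαKO library above every CTR library, as had 3.25% of all genes tested, with 4.55% separated the other way. The median log2 fold change, Mac-GsαKO over CTR, was 1.14 over the 9 genes and -0.01 over all genes tested. Other measures also separated the genotypes: mitochondrial genes took 1.20% to 1.36% of the counts in Mac-GsαKO and 1.39% to 1.97% in CTR, and 18683 to 18985 genes were detected in Mac-GsαKO and 17894 to 18652 in CTR. Their part in the class II values was not tested. From bulk RNA, more cells with class II transcripts and more transcripts per cell cannot be told apart.

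**Figure D1:**
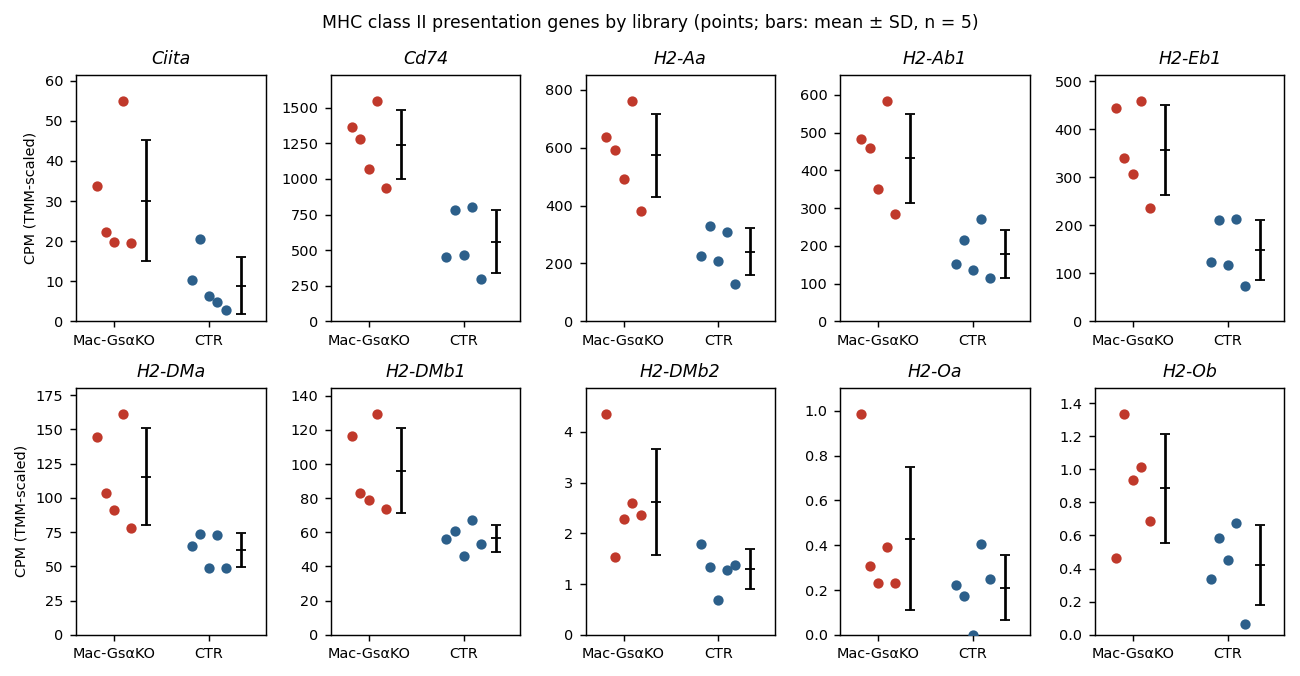
CPM of the 10 class II genes in each library, with Mac-GsαKO in red and CTR in blue, and with mean ± SD (n = 5) beside the points. For Cd74, H2-Aa, H2-Ab1, H2-Eb1, H2-DMa and H2-DMb1 the 5 Mac-GsαKO points lie above the 5 CTR points, and for the other 4 genes the points overlap.

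Ciita, the transactivator, had the largest fitted change of the 9 genes. It stood at 33.7, 22.3, 19.7, 54.9 and 19.5 CPM in Mac-GsαKO libraries 1 to 5, against 10.2, 20.6, 6.32, 4.80 and 2.74 CPM in CTR libraries 1 to 5. The groups overlapped: CTR 2 lay above Mac-GsαKO 3 and Mac-GsαKO 5, and the other 4 CTR libraries lay below all Mac-GsαKO libraries. The ratio of the highest to the lowest library, taken from FPKM, was 2.80 within Mac-GsαKO and 7.38 within CTR. The log2 fold change was 1.74 (SE 0.47), a fold of 3.35. Ciita was not past the threshold over all genes by edgeR, and was past it by DESeq2 and by voom. Without CTR 2 the log2 fold change was 2.31, and without CTR 4 and CTR 5 it was 1.29. A gene-level count does not tell apart the alternative Ciita promoters that macrophages, dendritic cells and B cells use.

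The classical chain genes separated the genotypes. H2-Aa, which encodes the I-A alpha chain, stood at 637, 593, 493, 761 and 381 CPM in Mac-GsαKO libraries 1 to 5, against 225, 329, 207, 310.3 and 129.6 CPM in CTR libraries 1 to 5. H2-Ab1, its beta chain partner, stood at 483, 459, 349, 583 and 283 CPM in Mac-GsαKO, against 153, 215, 136, 270.0 and 114 CPM in CTR. H2-Eb1, the I-E beta chain, stood at 444, 341, 306, 459 and 236 CPM in Mac-GsαKO, against 124, 211, 117, 214 and 73.1 CPM in CTR. For all 3 genes Mac-GsαKO 4 was the highest Mac-GsαKO library (with Mac-GsαKO 1 close to it for H2-Eb1), Mac-GsαKO 5 the lowest, CTR 5 the lowest CTR library, and CTR 2 or CTR 4 the highest. The log2 fold changes lay close together, at 1.25 (SE 0.24) for H2-Aa, 1.28 (SE 0.25) for H2-Ab1 and 1.27 (SE 0.28) for H2-Eb1. H2-Ea, the alpha chain that pairs with the I-E beta chain, was listed with a count of 0 in all 10 libraries, which allows up to 3 counts in each. Its row was matched by an older symbol. Whether the 0 stems from the mice or from the gene annotation was not tested.

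Cd74, the invariant chain, was the most abundant of the 10 genes. It stood at 1364, 1279.8, 1069.8, 1547 and 934 CPM in Mac-GsαKO libraries 1 to 5, against 456, 783, 465, 802 and 296 CPM in CTR libraries 1 to 5. The lowest Mac-GsαKO library lay above CTR 2 and CTR 4, which were the highest CTR libraries, and the groups did not overlap. The log2 fold change was 1.14 (SE 0.25), a fold of 2.21.

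The DM genes encode the peptide exchange factor, and the fitted values of H2-DMa and H2-DMb1 were smaller than those of the classical chains, a difference that was not tested. H2-DMa, the alpha chain, stood at 144, 103, 90.9, 161 and 78.1 CPM in Mac-GsαKO libraries 1 to 5, against 65.0, 73.7, 49.0, 72.8 and 48.6 CPM in CTR libraries 1 to 5. H2-DMb1, a beta chain, stood at 116, 82.8, 79.0, 129 and 73.7 CPM in Mac-GsαKO, against 56.3, 60.7, 45.9, 67.2 and 53.0 CPM in CTR. Mac-GsαKO 1 and Mac-GsαKO 4 stood above the other 3 Mac-GsαKO libraries for both genes, and neither gene overlapped between genotypes. Their log2 fold changes were 0.90 (SE 0.20) and 0.77 (SE 0.17). H2-DMb2, the other beta chain gene, stood at 4.35, 1.54, 2.27, 2.59 and 2.35 CPM in Mac-GsαKO, against 1.79, 1.34, 0.677, 1.28 and 1.37 CPM in CTR. CTR 1 lay above Mac-GsαKO 2, and the other CTR libraries lay below all Mac-GsαKO libraries (log2 fold change 1.01, SE 0.31). In GENCODE M21 on GRCm38, 25.2% of the stretches of 50 bases in the longest H2-DMb2 transcript also occur in H2-DMb1 transcripts, and H2-DMb1 had 59.8 ± 18.1 times the FPKM of H2-DMb2 in Mac-GsαKO and 71.6 ± 21.2 times in CTR (SD, n = 5 each). The rule by which reads that fit both genes were assigned is not known here, so the H2-DMb2 values are uncertain.

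The DO genes, which encode the inhibitor of DM and are best known from B cells, were near the detection limit. H2-Oa had 17, 6, 4, 7 and 4 counts in Mac-GsαKO libraries 1 to 5, against 4, 3, 0, 6 and 4 counts in CTR libraries 1 to 5. Apart from Mac-GsαKO 1 the H2-Oa counts of the genotypes overlapped. H2-Ob had 8, 26, 16, 18 and 12 counts in Mac-GsαKO libraries 1 to 5, against 6, 10, 8, 10 and 1 counts in CTR libraries 1 to 5, and Mac-GsαKO 1 lay within the CTR range. H2-Ob passed the filter through 4 Mac-GsαKO and 2 CTR libraries, with a log2 fold change of 1.07 (SE 0.45), and so it was kept mainly through the genotype in which it was higher.

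**Figure D2:**
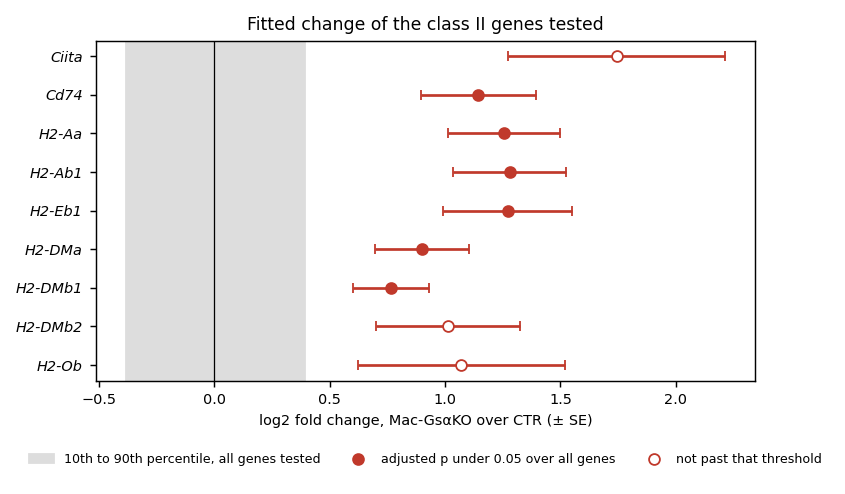
Fitted log2 fold change, Mac-GsαKO over CTR, with its SE for the 9 class II genes that passed the filter on low counts; filled points had an adjusted p under 0.05 over all genes. The values run from 0.77 for H2-DMb1 to 1.74 for Ciita, and the grey band holds the 10th to the 90th percentile of all genes tested (-0.38 to 0.40).

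Per length of gene, as deposited FPKM, the order of the genes was the same in both genotypes. In Mac-GsαKO Cd74 averaged 626 ± 121, H2-Eb1 305 ± 79.8, H2-Aa 226 ± 56.4 and H2-Ab1 185 ± 50.1 FPKM (SD, n = 5). In CTR Cd74 averaged 273 ± 102, H2-Eb1 122 ± 48.5, H2-Aa 91.8 ± 29.5 and H2-Ab1 73.7 ± 23.3 FPKM (SD, n = 5). Cd74, H2-Eb1, H2-Aa and H2-Ab1 followed in this order in every library, although the ranges of neighbours overlapped, except for Cd74 and H2-Eb1 in Mac-GsαKO. The DM genes came next, with H2-DMb1 at 58.7 ± 14.99 and H2-DMa at 53.0 ± 16.2 FPKM in Mac-GsαKO, against 33.6 ± 3.76 and 27.6 ± 4.995 FPKM in CTR. H2-DMb1 stood above H2-DMa in every library, while the ranges of these neighbours overlapped in both genotypes. Ciita stood at 5.78 ± 2.88 FPKM in Mac-GsαKO and 1.69 ± 1.37 FPKM in CTR, and H2-DMb2 at 1.05 ± 0.417 and 0.506 ± 0.159 FPKM. In CTR the ranges of Ciita and H2-DMb2 overlapped, and the order of H2-Oa and H2-Ob, at the lower end, differed between libraries. The order of the classical chain genes rests on 1 length per gene: 1184 bases for H2-Eb1, 2562 for H2-Aa and 2354 for H2-Ab1. By mean CPM it was H2-Aa, H2-Ab1, H2-Eb1, at 573, 432 and 357 in Mac-GsαKO and 240, 178 and 148 in CTR. Their longest GENCODE M21 transcripts have 3223, 1212 and 1669 bases, and the order by those lengths was not computed.

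The proportions between chain genes varied less from library to library than their proportions to Ciita. The FPKM ratio of H2-Ab1 to H2-Aa was 0.817 ± 0.0282 in Mac-GsαKO and 0.815 ± 0.127 in CTR (0.947 in CTR 4 and 0.961 in CTR 5), and that of H2-Eb1 to H2-Aa was 1.35 ± 0.0987 in Mac-GsαKO and 1.303 ± 0.131 in CTR. Cd74 over H2-Aa was 2.80 ± 0.1997 in Mac-GsαKO and 2.95 ± 0.262 in CTR. H2-DMa over H2-Aa was 0.233 ± 0.0244 in Mac-GsαKO and 0.316 ± 0.0731 in CTR, with a range of 0.203 to 0.263 in Mac-GsαKO and 0.261 to 0.436 in CTR, so the ranges just overlapped. Cd74 over Ciita ran from 73.9 to 150.3 in Mac-GsαKO and from 99.9 to 438 in CTR. CTR 4, with 438, and CTR 5, with 283, lay above all other libraries in that ratio, and CTR 1, with 117, and CTR 2, with 99.9, lay within the Mac-GsαKO range.

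Covariation with Ciita was read on log2 CPM over the 10 libraries, which share depth and scaling between genes. Over all libraries, Pearson's r with Ciita lay between 0.678 for H2-DMb2 and 0.908 for H2-Aa, and Spearman's rho between 0.624 for H2-Ob and 0.927 for H2-Aa and H2-DMa (8 genes, n = 10 libraries). These values hold the difference between genotypes. After the mean of each genotype was taken off, r was 0.750 for H2-Aa, 0.698 for H2-DMa, 0.687 for H2-Eb1, 0.656 for Cd74, 0.545 for H2-Ab1, 0.516 for H2-DMb1, 0.432 for H2-Ob and 0.261 for H2-DMb2. Spearman's rho of these deviations lay between 0.176 for H2-Ob and 0.685 for H2-Aa and H2-DMa. Without CTR 2 and CTR 5, the libraries farthest from their genotype mean for Ciita, r was 0.189 for Cd74, 0.473 for H2-Aa, 0.309 for H2-Ab1 and 0.320 for H2-Eb1 (n = 8 libraries). H2-DMa, with 0.701, and H2-DMb1, with 0.650, stood higher there than the chain genes. Without CTR 4 and CTR 5 it was 0.887 for Cd74, 0.885 for H2-Aa, 0.879 for H2-Ab1, 0.896 for H2-Eb1, 0.899 for H2-DMa and 0.893 for H2-DMb1. CTR 4 was low in Ciita and high in the chain genes among the CTR libraries. Within the 5 Mac-GsαKO libraries alone r lay between 0.853 and 0.965 for these 6 genes. Within the 5 CTR libraries alone it lay between 0.211 for H2-DMb1 and 0.710 for H2-Aa. The counts of H2-Ob and H2-DMb2 were too low to read a weak correlation.

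**Figure D3:**
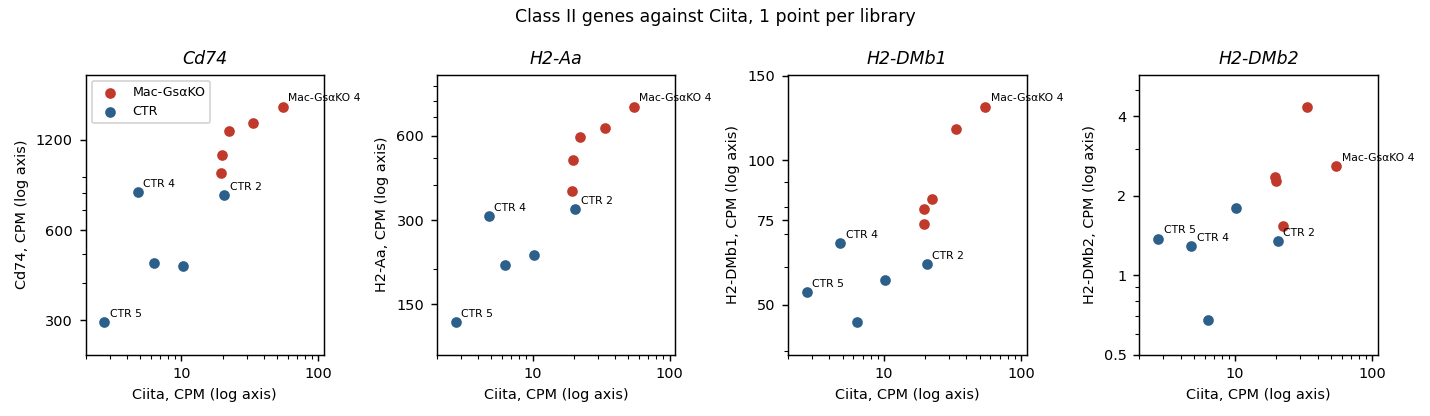
CPM of Cd74, H2-Aa, H2-DMb1 and H2-DMb2 against CPM of Ciita, on log axes, with 1 point per library (Mac-GsαKO red, CTR blue). Mac-GsαKO 4 is highest for Ciita and for the first 3 genes, and CTR 4, at 4.80 CPM of Ciita and 802 CPM of Cd74, lies above the run of the other libraries.

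With all 10 libraries, Cd74 and the classical chain genes followed each other more closely than they followed Ciita. Within genotypes, r between pairs of Cd74, H2-Aa, H2-Ab1 and H2-Eb1 lay between 0.940 and 0.985 (6 pairs), and r of these 4 genes with Ciita lay between 0.545 and 0.750. H2-DMa and H2-DMb1, which form the DM pair, had r = 0.954 with each other. Among 10119 other genes with an average log2 CPM of at least 1, the 8 whose within-genotype deviations were most like those of these 4 genes, by mean r, were Clk4 (0.947), Taf1b (0.921), Zfp362 (0.915), Apln (0.914), Cyp27a1 (0.898), Tmem150b (0.896), Tmem178 (0.896) and F8a (0.894). Clk4 encodes a kinase of splicing factors, Taf1b a factor of RNA polymerase I, Apln the peptide apelin and Cyp27a1 a sterol hydroxylase. On the same measure Ciita, with 0.660, had rank 319, and the 99th percentile over the genes compared was 0.759. Without CTR 4 and CTR 5 the mean r of the 8 genes lay between 0.791 for Tmem150b and 0.946 for F8a. Ciita then had r between 0.879 and 0.896 with the 4 genes, and its rank was not computed there. Of the 8 genes Apln, with a log2 fold change of 0.91 (SE 0.24), and Tmem178, with 1.61 (SE 0.38), stood apart from the rest, whose values lay between -0.19 and 0.33. With 10 libraries and so many genes, high values of r arise in numbers, and a like pattern is no sign of a shared role.

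The number of class II genes past the threshold depended on single libraries. It was 0 of 9 by the edgeR quasi-likelihood test without Mac-GsαKO 1, Mac-GsαKO 2, Mac-GsαKO 4 or CTR 3, where 8 or 9 of the genes had an unadjusted p under 0.05, as had 16.6% to 18.96% of all genes in those fits. Between 62 and 131 of all genes were called in those fits, against 520 with all libraries. The number of class II genes was 2 without CTR 1 (H2-Aa and H2-Ab1) and 4 without CTR 5, where H2-DMa and H2-DMb1 were lost. It was 7 without CTR 2, where Ciita passed, and 6 without Mac-GsαKO 3, Mac-GsαKO 5 or CTR 4, and also without CTR 4 and CTR 5 together. With all libraries it was 8 by DESeq2 (1289 of all 13203 genes called), with Ciita and H2-DMb2 added, and 7 by voom (1919 called), with Ciita added. The fitted changes moved less: in the fits with 1 library left out the median over the genes lay between 1.04 and 1.31, and no gene was lower in Mac-GsαKO in any of them.

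**Figure D4:**
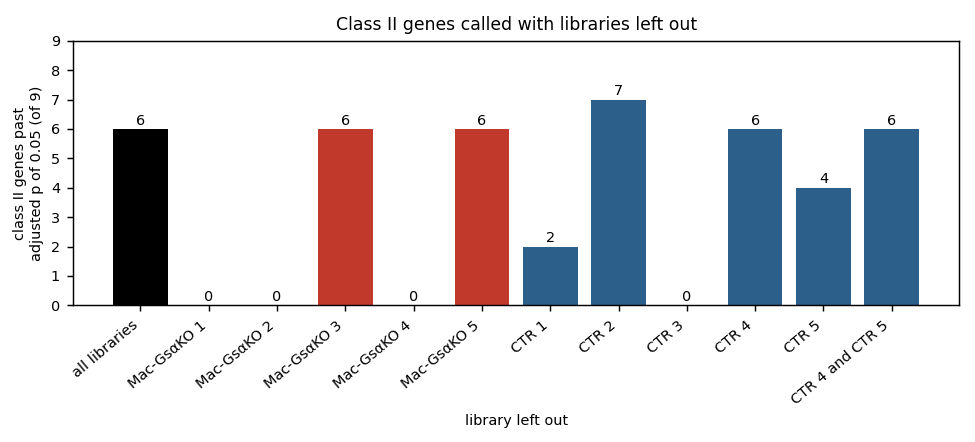
Number of the 9 class II genes with an adjusted p under 0.05 when all libraries are used (black), when 1 Mac-GsαKO library is left out (red), and when 1 CTR library or CTR 4 and CTR 5 are left out (blue). The number runs from 0 to 7 with 1 library left out.

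Genes that act with Ciita or ahead of it passed the edgeR test in no case. Over all genes tested 21.9% had an unadjusted p under 0.05, 10.04% higher and 11.9% lower in Mac-GsαKO, and the counts at that level in the lists that follow are to be read against these shares. Of all 13203 genes edgeR called 520, DESeq2 1289 and voom 1919, and the calls of each test in the lists are to be read against its number. Of the 11 genes of its partners (the RFX and NF-Y subunits, Creb1 and coactivators) none passed in either direction, 2 were higher at an unadjusted p under 0.05, and the median log2 fold change was 0.18; DESeq2 called 0 of these and voom called 1 higher. Rfx5, the DNA-binding RFX subunit, stood at 8.94 ± 0.518 CPM in Mac-GsαKO and 6.75 ± 1.54 CPM in CTR (log2 fold change 0.41, SE 0.16, adjusted p = 0.163). Rfxank, another RFX subunit, stood at 13.9 ± 0.848 CPM in Mac-GsαKO and 11.5 ± 1.15 CPM in CTR (0.27, SE 0.10, adjusted p = 0.149). Of 12 genes of the interferon gamma input to Ciita none passed, 2 were higher and 1 lower at an unadjusted p under 0.05, and the median was 0.16; DESeq2 called 0 of these and voom called 2 higher. Irf8, a myeloid interferon regulatory factor, stood at 263 ± 46.5 CPM in Mac-GsαKO and 207 ± 14.9 CPM in CTR (0.34, SE 0.12, adjusted p = 0.115), and Ifngr2, the second chain of the interferon gamma receptor, at 191 ± 6.75 CPM in Mac-GsαKO and 212 ± 3.72 CPM in CTR (-0.15, SE 0.07, adjusted p = 0.216). Ifng itself had at most 2 counts in any library.

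Among genes of the other steps of presentation 1 passed the edgeR test. Of 13 genes of class II processing and turnover none passed, 3 were lower at an unadjusted p under 0.05, and the median log2 fold change was -0.04; DESeq2 called 2 lower, and voom 1 higher and 2 lower. Ctsd, an endosomal protease, stood at 21535 ± 1757 CPM in Mac-GsαKO and 26429 ± 2240 CPM in CTR (-0.30, SE 0.09, adjusted p = 0.0831), and Ctsk, another cathepsin, at 621 ± 113 CPM in Mac-GsαKO and 856 ± 105 CPM in CTR (-0.46, SE 0.13, adjusted p = 0.0686). Ctss, the cathepsin that trims the invariant chain, had 0.11 (SE 0.08, adjusted p = 0.468), and Marchf1, a ubiquitin ligase that removes class II from the surface, had 0.22 (SE 0.17, adjusted p = 0.470). Of 8 genes of costimulation or its inhibition tested, among 12 listed, only Lgals9 passed by edgeR, and the list median was 0.11. Lgals9, which encodes a galectin, fell to 139 ± 16.2 CPM in Mac-GsαKO, against 213 ± 37.6 CPM in CTR (-0.61, SE 0.13, adjusted p = 0.0246). DESeq2 called Lgals9 alone in this list, and voom called Lgals9 and Cd80 lower and Cd40 higher. Lgals9 lost its call without Mac-GsαKO 1, Mac-GsαKO 2, Mac-GsαKO 4 or CTR 3 (adjusted p up to 0.0766). Cd80, a ligand of CD28, stood at 6.82 ± 1.03 CPM in Mac-GsαKO and 8.72 ± 1.27 CPM in CTR (-0.36, SE 0.14, adjusted p = 0.172).

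Other genes of the histocompatibility region and of class I presentation gave no call by edgeR or DESeq2. Of the 4 further genes listed from the class II region only Brd2, a bromodomain gene, was tested (0.15, SE 0.09, adjusted p = 0.341), and H2-Eb2 had at most 8 counts in any library. Of 14 class I presentation genes none passed, 3 were higher and 2 lower at an unadjusted p under 0.05, and the median log2 fold change was 0.21; DESeq2 called 0 of these, and voom 2 higher and 2 lower. H2-D1, a class I heavy chain, stood at 6870 ± 713 CPM in Mac-GsαKO and 5595 ± 577 CPM in CTR (0.30, SE 0.10, adjusted p = 0.113), and Pdia3, a chaperone of class I loading, at 441 ± 94.9 CPM in Mac-GsαKO and 609 ± 114 CPM in CTR (-0.46, SE 0.16, adjusted p = 0.113). Nlrc5, the class I counterpart of Ciita, had 0.41 (SE 0.30, adjusted p = 0.464). Tap1 had the largest fitted change of the 14, at 155 ± 58.3 CPM in Mac-GsαKO and 94.8 ± 34.9 CPM in CTR (0.71, SE 0.28, adjusted p = 0.161). Of the 14 genes 9 had a fitted value above 0 and 5 below. Whether the change of the class I genes differs from that of the class II genes was not tested.

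Markers of other cells that carry class II were looked at in the same libraries. Of 14 B cell markers 5 were tested and none passed by edgeR, 2 were higher at an unadjusted p under 0.05, and DESeq2 called 1 (Ighm) and voom 2 (Ighm and Cd79a) higher. All 5 had a fitted value above 0, with a median log2 fold change of 0.39. Their summed level lay between 179 and 227 CPM in Mac-GsαKO and between 157 and 222 CPM in CTR, most of it Cd22 (186 ± 20.4 CPM in Mac-GsαKO and 179 ± 23.9 CPM in CTR). Cd79a, a chain of the B cell receptor, stood at 1.33 ± 0.437 CPM in Mac-GsαKO and 0.588 ± 0.334 CPM in CTR (1.17, SE 0.39, adjusted p = 0.105), and Ighm at 8.16 ± 1.55 CPM in Mac-GsαKO and 4.18 ± 2.12 CPM in CTR (0.97, SE 0.32, adjusted p = 0.108), with no overlap for Ighm. Vpreb3 had at most 1 count in any library. The B cell markers' part in the higher class II values was not tested.

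Of 9 dendritic cell markers 4 were tested and Batf3 passed, a transcription factor gene that monocytes and macrophages can also express. Batf3 rose to 6.17 ± 1.14 CPM in Mac-GsαKO, against 2.64 ± 0.545 CPM in CTR (log2 fold change 1.22, SE 0.19, adjusted p = 0.00848), and its adjusted p stayed at or under 0.0353 whichever single library was removed. The summed level of the list, most of it Itgax, lay between 471 and 1015 CPM in Mac-GsαKO and between 357 and 1376 CPM in CTR. Of the defining markers, Xcr1 and Siglech had at most 4 counts in any library, while Clec9a had up to 27 counts and stood at 0.924 ± 0.447 CPM in Mac-GsαKO and 0.373 ± 0.0636 CPM in CTR, and did not pass the filter on low counts. Zbtb46 stood at 0.834 ± 0.395 CPM in Mac-GsαKO and 0.528 ± 0.486 CPM in CTR (0.65, SE 0.54, adjusted p = 0.514). Of the 4 genes tested 2 had a fitted value above 0 and 2 below, with a median log2 fold change of 0.09. The 2 below were Ccr7 (-0.72, SE 0.53, adjusted p = 0.458) and Itgax (-0.47, SE 0.33, adjusted p = 0.438). Flt3 and Cd209a, not tested, averaged 0.319 and 0.0694 CPM in Mac-GsαKO, against 0.454 and 0.300 CPM in CTR. Of 9 T and NK cell markers only Cd4 was tested (-0.16, SE 0.20, adjusted p = 0.683), and the list summed to between 4.02 and 5.69 CPM in Mac-GsαKO and between 3.44 and 6.15 CPM in CTR. The dendritic cell markers' part in the class II values was not tested.

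Markers of the peritoneal subsets moved as well. Of 12 markers of large peritoneal macrophages 11 were tested, and by edgeR 5 fell and none rose, with a median log2 fold change of -1.03. DESeq2 called 6 lower (with F5) and voom 7 (with F5 and Prg4), and both called Cd5l higher. Serpinb2, for example, fell to 3.58 ± 0.738 CPM in Mac-GsαKO, against 21.3 ± 11.04 CPM in CTR, and Alox15, a lipoxygenase gene, to 3.99 ± 1.25 CPM in Mac-GsαKO, against 20.7 ± 9.89 CPM in CTR. The log2 fold changes of the 5 genes were those of Serpinb2 (-2.57, SE 0.31, adjusted p = 0.00297), Alox15 (-2.37, SE 0.34, adjusted p = 0.00666), Ltbp1 (-2.02, SE 0.39, adjusted p = 0.0205), Timd4 (-1.67, SE 0.38, adjusted p = 0.0338) and Selp (-1.67, SE 0.43, adjusted p = 0.0495). Serpinb2 and Alox15 stayed past the threshold whichever single library was removed, Ltbp1 did not without Mac-GsαKO 1, Mac-GsαKO 4 or CTR 3 (adjusted p up to 0.0579), and Timd4 and Selp fell short in 7 of 10 such fits each (up to 0.0976 for Timd4 and 0.131 for Selp) and also without CTR 4 and CTR 5 together (0.0594 for Timd4 and 0.0869 for Selp). Their summed level, most of it Cd5l, lay between 372 and 622 CPM in Mac-GsαKO and between 275 and 654 CPM in CTR, so the sum did not follow the 5 genes. Cd5l, a macrophage scavenger protein gene, stood at 459.8 ± 116 CPM in Mac-GsαKO and 273 ± 126 CPM in CTR (0.75, SE 0.26, adjusted p = 0.122). Of 9 markers of small peritoneal macrophages 8 were tested, and by edgeR only Clec4b1, a lectin gene, rose, to 1.58 ± 0.319 CPM in Mac-GsαKO, against 0.605 ± 0.264 CPM in CTR (1.38, SE 0.31, adjusted p = 0.0315). DESeq2 and voom each called Retnla higher as well, which stood at 12.5 ± 4.79 CPM in Mac-GsαKO and 5.94 ± 3.25 CPM in CTR (1.08, SE 0.34, adjusted p = 0.0949 by edgeR). Clec4b1 lost its call in 7 of 10 fits with 1 library left out (adjusted p up to 0.0852). That list summed to between 82.0 and 114.5 CPM in Mac-GsαKO and between 81.0 and 108 CPM in CTR. The largest part was Folr2, at 58.5 ± 7.05 CPM in Mac-GsαKO and 56.6 ± 9.87 CPM in CTR. Of its 8 genes tested 5 had a fitted value above 0 and 3 below, with a median log2 fold change of 0.24. At an unadjusted p under 0.05 by edgeR 3 were higher and 1 lower. The 5 above 0 were Clec4b1, Retnla, Irf4 (0.59, SE 0.24, adjusted p = 0.182), Ccr2 (0.44, SE 0.25, adjusted p = 0.332) and Folr2 (0.05, SE 0.13, adjusted p = 0.861). The 3 below 0 were Mgl2 (-0.85, SE 0.44, adjusted p = 0.289), Ly6c2 (-0.57, SE 0.25, adjusted p = 0.206) and Clec10a (-0.11, SE 0.19, adjusted p = 0.765). Of 11 general macrophage genes Csf1r (0.46, SE 0.09, adjusted p = 0.0235) and Itgam (0.79, SE 0.20, adjusted p = 0.0494) rose and none fell; Csf1r lost its call without Mac-GsαKO 1, Mac-GsαKO 2, Mac-GsαKO 4 or CTR 3 (up to 0.0741), and Itgam in 8 of 10 such fits (up to 0.1301). The part of the subset markers in the class II values was not tested.

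**Figure D5:**
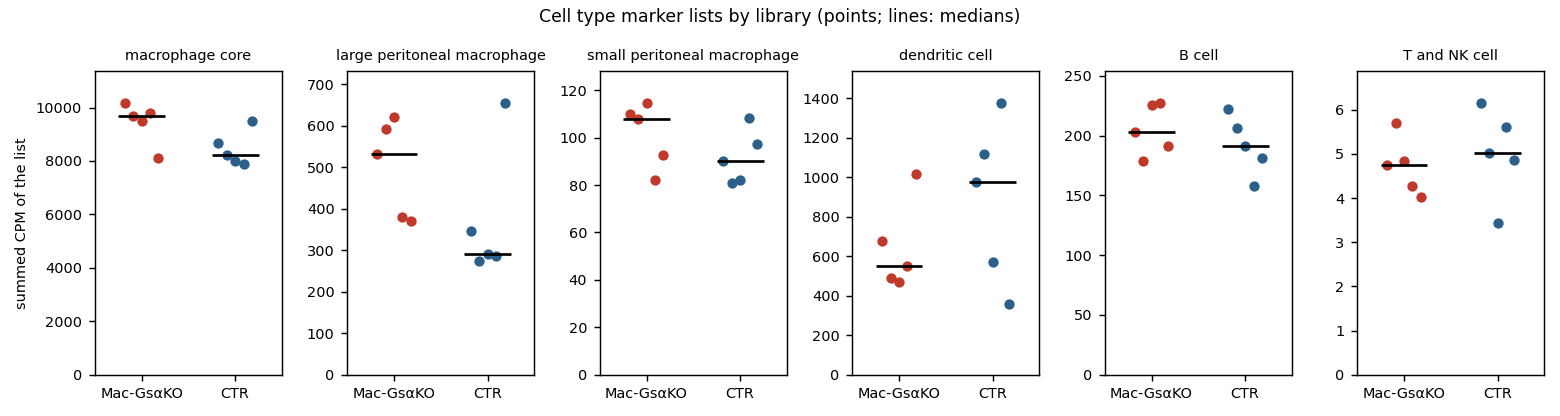
Summed CPM of 6 lists of cell type markers in each library, with Mac-GsαKO in red left of CTR in blue and black lines at the medians. The ranges of the genotypes overlap in all 6 lists.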

How the data were processed

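The series holds RNA sequencing of cultured peritoneal macrophages, 5 Mac-GsαKO and 5 CTR libraries, grouped by their titles. HISAT2, SAMtools 1.3.1, CASAVA 1.8, edgeR and the build GRCm39 appear in the submitters' processing notes, with no role or order. The sources used here name no read counter, annotation or strand setting. Raw read counts for each Ensembl gene and FPKM were deposited by the authors. The authors' FPKM came out as the count divided by gene length and library total, to within 9.65e-06 of the value at 50 or more counts.

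Genes were kept by filterByExpr (13203 of 53465, with 99.9% of the counts), scaled by TMM, and tested in R 4.3.3 with edgeR 4.0.16 (quasi-likelihood, genotype only, two-sided), with p-values adjusted by Benjamini and Hochberg over all genes and a threshold of 0.05. Standard errors were derived from the log2 fold change and the F statistic. The test was tried on simulated data first. Log2 CPM for correlations used a prior count of 2. Symbols matched 53274 identifiers.

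The class II genes, the 12 related lists and the alternatives were chosen with earlier results of these data known. All 10 class II genes and Gnas are named, of each list every gene past the threshold or else the 2 of lowest p, and the 8 genes of most similar within-genotype pattern. Cd68, Cd80, Nlrc5, Tap1, Ctss, Marchf1, H2-Ea, H2-Eb2, Ifng, Cd22, Vpreb3, Itgax, Xcr1, Siglech, Clec9a, Zbtb46, Ccr7, Flt3, Cd209a, Cd40, Retnla, Irf4, Ccr2, Folr2, Ly6c2, Mgl2, Clec10a, F5, Prg4 and Cd5l are list genes named besides, after their values were seen. Alternatives were other scalings, filters, DESeq2 1.42.0, limma 3.58.1 voom with quality weights, a robust fit, a replicate block, a trend on gene length (mgcv 1.9.3), and libraries left out.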

Additional observations from a re-analysis of the deposited data

Results flagged for a closer look

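H2-Oa stood at 0.985 CPM in Mac-GsαKO 1, above the other 4 Mac-GsαKO libraries by 0.783 of the range of the 5. This was 17 counts, against 4 to 7 in the others. It was the only 1 of 20 groups looked at (10 genes in 2 genotypes) in which 1 library stood apart in this way, and chance gives about 1 in 20.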

How the results depend on the processing

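Every class II gene had the same direction in each alternative in which it was fitted: 9 genes, or 8 with a CPM of at least 1 required in at least 5 libraries, where H2-Ob was not fitted. Their median log2 fold change stayed within the spread between libraries, and with 1 library left out it lay between 1.04 and 1.31. With 1 library left out the number of class II genes called lay between 0 and 7, and that of all genes between 62 and 868. That of the genes in the related lists lay between 3 and 13. The median within-genotype r with Ciita (0.601 with all libraries) then lay between 0.457, without CTR 5, and 0.845, without CTR 4. With no filter on low counts 24365 genes were tested, and the calls were 261 over all genes, 2 in class II (H2-Aa and H2-Ab1) and 6 in the related lists, against 520, 6 and 10 with the filter. DESeq2 called 1289 genes, 16 in the related lists, and voom 1919 and 28. Without CTR 4 and CTR 5 together 1185 genes were called, and the median r with Ciita was 0.886. In place of Pearson's r, the median Spearman's rho was 0.455. With library size only, 59.4% of the calls were higher in Mac-GsαKO, against 46.3% with TMM. The cause of these differences was not tested. With the replicate number as a block 104 genes were called, 6 of the class II genes as without it and 4 in the related lists, and the median r with Ciita was 0.388. Libraries with equal numbers correlated between -0.126 and 0.0582 in their deviations across genes, and none of the 5 Mac-GsαKO libraries correlated best with the CTR library of its number, so the numbers are not taken to pair the libraries. Between 0 and 3 counts, as for H2-Ea, Ifng and parts of H2-Oa, the depth shows no difference.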
